A study of Homo sapiens with 3 samples.

Results

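The transcripts examined were those of 10 hnRNP genes outside the A, B and D family: HNRNPC, HNRNPF, HNRNPH1, HNRNPH3, HNRNPK, HNRNPL, HNRNPM, HNRNPR, HNRNPU and SYNCRIP. They were taken by name, and RBM17 binding was read from the clusters of crosslinked RNA fragments that carry their Ensembl identifiers, out of 10872 genes with such a cluster. RBM17 eCLIP was performed on K562 cells with no treatment named in the labels, an established line from a chronic myelogenous leukemia, with 2 immunoprecipitated replicates and 1 size-matched input without RBM17 immunoprecipitation. In this assay, ultraviolet light fixes proteins to the RNA they touch, and the RNA recovered with the protein is compared with RNA of the same gel size from the input. For replicate 1, each of 137095 clusters has a log2 fold and a −log10 p over the input and no read count, so its depth is unknown. For replicate 2, each of 119066 clusters has a read count, a gene and a p-value of the peak caller that does not involve the input. The 866 reproducible peaks have 1 log2 fold and 1 −log10 p for both replicates together, so no value below has a replicate error and no test over samples was possible.

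hnRNP proteins coat nascent transcripts in the nucleus and, by binding short sequence elements in exons and introns, influence which splice sites are used. Many of their own genes produce alternative isoforms, some of which are degraded by nonsense-mediated decay. RBM17, also called SPF45, is a spliceosomal protein that acts in the choice of splice sites, so contacts close to exon boundaries of these transcripts are what the assay could show.

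The first 5′ splice sites are printed here because most of the peaks described below lay in or next to introns close to the 5′ end of the stretch of replicate 2 clusters of the gene. That end need not be the transcription start. Each line gives the last 10 bases of the first exon and the first 20 of intron 1 of the canonical transcript, read 5′ to 3′ on the transcribed strand, with the first 6 bases of the intron in capitals. They come from hg38 and GENCODE v44, whereas the binding data are in hg19, so whether a peak covers one of these sites was not measured. Sequences of 4 genes with peaks near the 5′ end of that stretch are followed by that of HNRNPR, which had no peak. HNRNPL and SYNCRIP, also with a peak near that end, and HNRNPF, also without a peak, are not printed.
HNRNPC (hg38, chr14:21269278-21269307, minus strand): ccccttcttgGTAAGTggagagggcggacg
HNRNPH1 (hg38, chr5:179623575-179623604, minus strand): agcgaccacgGTGGGTaccgtttttgcgag
HNRNPH3 (hg38, chr10:68332207-68332236, plus strand): gcctgacaggGTATCTgaagtaaaaggggg
HNRNPU (hg38, chr1:244863597-244863626, minus strand): ccggcggcggGTGAGTgctgcgttgtacgt
HNRNPR (hg38, chr1:23344191-23344220, minus strand): ctctgccctgGTGAGTctcgcgccggcccg
All 5 introns begin with GT, and HNRNPU and HNRNPR share the same first 6 bases although only HNRNPU had peaks. The first 200 bases of intron 1 held 51.5% G in HNRNPU, 45.5% in HNRNPH3, 41.5% in HNRNPR, 37.0% in HNRNPH1 and 36.5% in HNRNPC. In HNRNPF, without a peak, they held 44.5%, so members with and without peaks overlapped in G content there. The G content of the peaks themselves was not measured, and whether it goes with binding was not tested. The median over 8456 protein-coding genes with a replicate 2 cluster and an intron 1 of at least 200 bases was 37%, so HNRNPU, at percentile 96.1, was the member with the highest G content there, and HNRNPC lay below the median.

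RBM17 had reproducible peaks in 8 of the 10 transcripts, 20 peaks in all, and none in HNRNPF or HNRNPR. Over all genes with a replicate 2 cluster, 4.07% had a peak. The members were also deeply covered, with 166 to 2938 replicate 2 reads and a median of 425.5 against 33 over all genes. Among the 1346 genes with at least 166 reads, a comparison chosen after the data were seen, 23.8% had a peak. The number of reads reflects both how much of an RNA is present and how much of it is bound, and these cannot be told apart in replicate 2. Together the members held 7975 reads in 325 clusters, 0.597% of the reads in all replicate 2 clusters, with identical intervals counted once.

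In replicate 1, 476 clusters lay in the 10 spans, and 102 of them, 21.4%, reached 3 on both scales, log2 fold and −log10 p (exact Clopper-Pearson 95% interval 17.8 to 25.4%, counting error only). Over all replicate 1 clusters this share was 5.35%, a comparison not matched for depth. HNRNPH1 gave 21 of the 102 and HNRNPH3 gave 23. A span here runs from the first to the last replicate 2 cluster of a gene, and clusters past both limits are called enriched. The median log2 fold was 1.86 in the members and 1.51 over all clusters, and 56 member clusters were below 0. Of the 325 member clusters in replicate 2, 210 overlapped a replicate 1 cluster, 64.6% (59.1 to 69.8%) against 31.9% over all replicate 2 clusters. When only clusters with a p of at most 1e-10 were counted, these shares came closer, at 84.0% and 78.7%. All members except HNRNPF and HNRNPR had both an enriched cluster in replicate 1 and a cluster with a p of at most 1e-10 in replicate 2, as did 8.30% of all genes and 47.1% of genes with at least 166 reads. Of the 102 enriched clusters, 35 overlapped any replicate 2 cluster, 34.3% (25.2 to 44.4%), with 37.9% over all enriched clusters of replicate 1. A reproducible peak lay over 22 of them, 21.6% (14.0 to 30.8%), where the share over all enriched clusters was 11.3%.

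**Figure D1:**
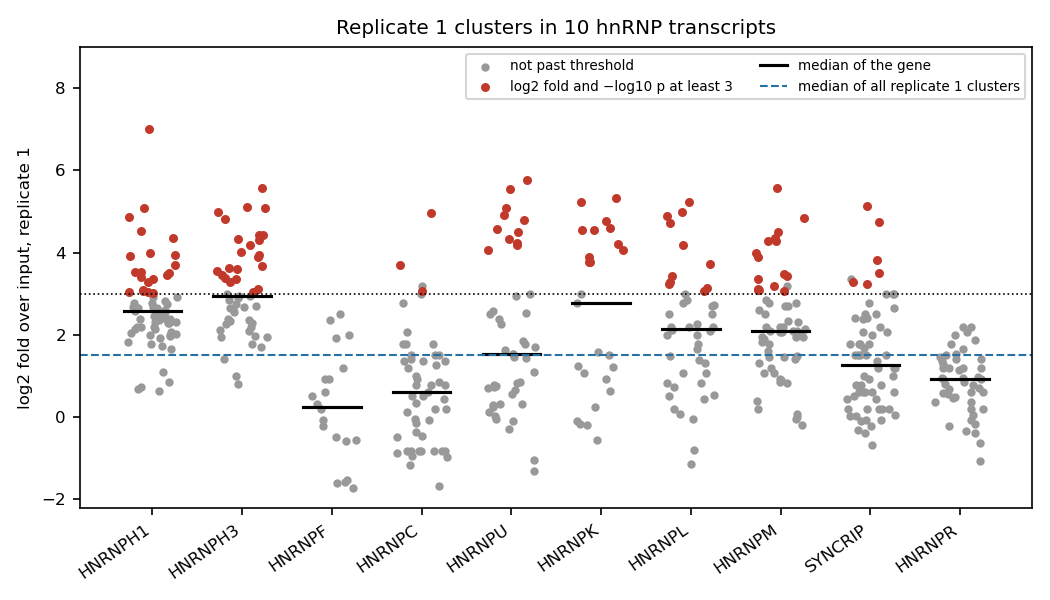
Log2 fold over input (y axis) of every replicate 1 cluster in the 10 transcripts (x axis), with enriched clusters in red and the gene median as a bar. HNRNPH1 and HNRNPH3 have no cluster below 0, and HNRNPF and HNRNPR have no red point.

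HNRNPF, HNRNPH1 and HNRNPH3 encode closely related proteins that bind runs of G, and their 3 transcripts held both the highest and the lowest median log2 fold of the members. HNRNPH1 (chr5:179041318-179050548 in hg19, minus strand) had 2938 replicate 2 reads in 49 clusters, the most of any member, and all 49 clusters had a p of at most 1e-10. Its coverage was 318 reads per kb of span, at percentile 96.2 of all genes, whereas the median gene had 4.02. Replicate 1 had 68 clusters there with log2 folds from 0.65 to 7.0 and a median of 2.58, at percentile 94.2 among the 3963 genes with at least 10 such clusters. Enriched clusters were spread over much of the transcript, 21 of 68 in all (30.9%, 20.2 to 43.3%), at distances of 24 to 7239 bp from the 5′ end of the span.

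HNRNPH1 had 5 peaks, all within the first 2420 bp of the span, and 24 genes of the whole list had more. The first, chr5:179050211-179050247, is annotated by the study as 5′ UTR and had a log2 fold of 4.69 over both replicates, 5.10 in replicate 1 and 39 reads in replicate 2. Its second peak, at 633 bp, lay in intron close to an exon, with log2 folds of 4.20 over both replicates and 4.36 in replicate 1 and 44 replicate 2 reads. The next 2, at 1170 and 2040 bp, were intronic too, the latter also annotated as 5′ UTR. They had folds of 3.33 and 3.25 over both replicates and of 3.95 and 3.53 in replicate 1. The order by fold was therefore not the order by reads. The fifth peak, chr5:179048084-179048172, is annotated by the study as 5′ splice site and was the deepest of all member peaks. It had 164 replicate 2 reads, a −log10 p of 39.0 and a log2 fold of 3.48, against 3.28 in replicate 1. By −log10 p it stood at position 7 of the 866 peaks.

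The highest fold of any member was not a peak. It was the replicate 1 cluster chr5:179044325-179044387 in HNRNPH1, with a log2 fold of 7.0 and a −log10 p of 35.2, over which HNRNPH1 had no replicate 2 cluster. GENCODE v44 lists 49 transcripts for HNRNPH1, of which 8 are annotated as targets of nonsense-mediated decay and 19 as retaining an intron, the most retained-intron transcripts among the members.

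HNRNPH3 (chr10:70091935-70101818, plus strand) had 566 reads in 22 clusters, 57.3 per kb, and of all members the highest median log2 fold in replicate 1, 2.94 over 50 clusters (range 0.81 to 5.58, percentile 97.0). Of these clusters 23 were enriched, 46.0% (31.8 to 60.7%), and 11 of the 23 lay 145 to 1734 bp from the 5′ end of the span. The enriched clusters of HNRNPH3 were therefore not restricted to its start.

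The first HNRNPH3 peak, chr10:70092062-70092106, is annotated by the study as 5′ splice site. It had log2 folds of 4.20 over both replicates and 4.81 in replicate 1 and 34 reads in replicate 2. Peak 2 lay 544 bp from the 5′ end, in intron, with folds of 4.09 and 5.08 and 28 reads. Between them, at 314 bp, was the most enriched replicate 1 cluster of the gene, chr10:70092231-70092266, with a log2 fold of 5.58, no replicate 2 cluster of HNRNPH3 over it and no peak. The third peak, chr10:70098364-70098484, is annotated as 5′ splice site and coding sequence and lay far from the 5′ end, at 65.7% of the span. It had the most reads of the gene, 76, and the lowest of its 3 peak folds, 3.38 over both replicates and 3.90 in replicate 1.

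HNRNPF (chr10:43881586-43904483, minus strand) had no enriched cluster. Its 13 replicate 2 clusters held 166 reads, the fewest of the members, and its 20 replicate 1 clusters had log2 folds from −1.73 to 2.51 with a median of 0.26. The highest −log10 p was 1.77. By the exact interval, 0 of 20 clusters allows a share of up to 16.8%, a range that holds the 5.35% over all replicate 1 clusters. Unlike in its relatives, 9 of the HNRNPF clusters were below 0. Its deepest replicate 2 cluster, with 43 reads, lay 21731 bp from the 5′ end and had a log2 fold of −0.58 in replicate 1. In GENCODE v44 the canonical HNRNPF transcript has 4 exons, the fewest of the members, and none of its 8 transcripts is annotated as a target of nonsense-mediated decay or as retaining an intron. The same holds for the 11 transcripts of HNRNPH3, which had 3 peaks, so this trait is not particular to HNRNPF.

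HNRNPC, whose protein binds uridine tracts and packages nascent transcripts, had enriched clusters only at the 5′ end. Its span, chr14:21678232-21737559 on the minus strand, had 593 replicate 2 reads in 55 clusters, and 300 of these reads, 50.6%, lay in the first 10% of the span. In replicate 1 the 51 clusters had log2 folds from −1.67 to 4.96 and a median of only 0.60, at percentile 11.7, and 18 were below 0. The 3 enriched clusters were the same places as the 3 peaks, 176 to 536 bp from the 5′ end. They made up 5.88% (1.23 to 16.2%) of the 51, close to the 5.35% over all replicate 1 clusters.

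The first HNRNPC peak, chr14:21737355-21737411, is annotated by the study as 5′ splice site. It had log2 folds of 3.86 over both replicates and 3.69 in replicate 1 and 33 reads. Peak 2, chr14:21737232-21737339, had the highest fold of the gene, 4.92 and 4.96, a −log10 p of 19.4 and 57 reads. The third, chr14:21736979-21737067, had folds of 3.45 and 3.07 and touched replicate 2 clusters of 61 and 44 reads. All 3 peaks are annotated as 5′ splice site or as intron close to an exon, and in HNRNPC the deepest replicate 2 cluster was also an enriched one.

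**Figure D2:**
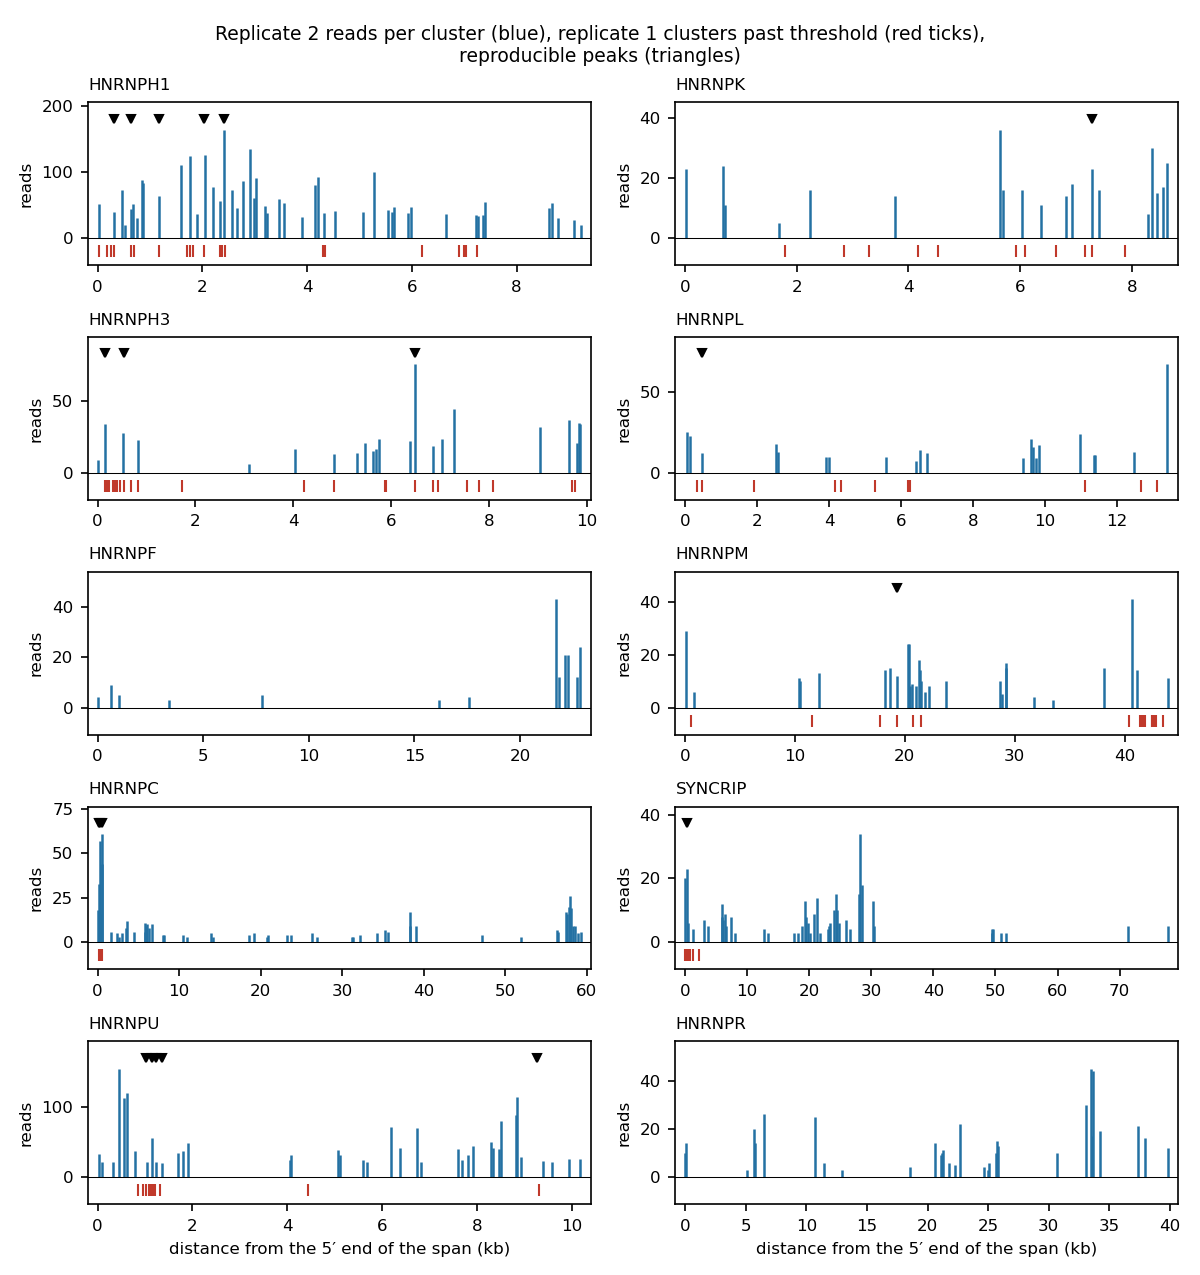
Replicate 2 reads of each cluster (y axis, bars) against the distance from the 5′ end of the span (x axis, kb), 1 panel per transcript, with enriched replicate 1 clusters as red ticks and peaks as triangles. In HNRNPC, HNRNPU and SYNCRIP the red ticks gather at the left edge, whereas in HNRNPM and HNRNPK most lie farther along.

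HNRNPU, also known as scaffold attachment factor A, is a nuclear protein that binds RNA and chromatin. The transcript (chr1:245017526-245027726, minus strand) had 1801 replicate 2 reads in 39 clusters, 177 per kb, second to HNRNPH1. Its 46 replicate 1 clusters ranged in log2 fold from −1.32 to 5.76 with a median of 1.54, and 11 were enriched, 23.9% (12.6 to 38.8%). Of the 11, 9 lay between 856 and 1325 bp from the 5′ end of the span, with folds of 4.07 to 5.76, so most of the enriched clusters fell in a short stretch.

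In and beside that stretch 4 of the 5 HNRNPU peaks lay side by side. The first, chr1:245026676-245026738, had log2 folds of 3.03 over both replicates and 4.23 in replicate 1, the widest difference of all 20 peaks, and 21 reads. Peak 2, chr1:245026553-245026621, had folds of 4.22 and 4.50 and 56 reads. The third spans only 3 bp, chr1:245026500-245026502, with folds of 4.39 and 4.79 and 21 reads. Peak 4, chr1:245026372-245026386, is annotated as 5′ UTR and had the highest log2 fold of the 20, 5.47 over both replicates and 5.76 in replicate 1, although its 20 reads were few. Among all 866 peaks it stood at position 32 by fold.

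The deepest HNRNPU cluster, chr1:245027214-245027331 with 156 reads, lay 454 bp from the 5′ end and was not a peak. Its log2 fold in replicate 1 was 1.64. The fifth peak, chr1:245018449-245018466, lay at 90.9% of the span, with log2 folds of 3.55 over both replicates and 3.0 in replicate 1. Its replicate 1 value was just below the limit before rounding, and its 14 replicate 2 reads are in a cluster named for ENSG00000188206, so this peak cannot be given to HNRNPU with certainty. The span holds 8 clusters of that gene on the same strand.

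HNRNPK, HNRNPL and HNRNPM, which bind C-rich, CA-rich and GU-rich RNA in turn, each had 1 peak, and most of their enriched replicate 1 clusters had no replicate 2 counterpart. HNRNPK (chr9:86583986-86592640, minus strand) had 338 reads in 19 clusters and 25 replicate 1 clusters with log2 folds from −0.56 to 5.34 and a median of 2.77. Enrichment was found in 11 of the 25, 44% (24.4 to 65.1%), with folds of 3.77 to 5.34 at 1784 to 7879 bp. No replicate 1 cluster of any kind lay in the first 10% of the span, and 1 of the 11 enriched clusters overlapped a replicate 2 cluster of the gene. The single peak, chr9:86585303-86585391, lay at 84.3% of the span and is annotated as intron close to an exon and 3′ splice site. It had log2 folds of 3.69 over both replicates and 4.21 in replicate 1 and 23 reads.

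HNRNPL (chr19:39327147-39340575, minus strand) had 352 reads in 21 clusters, and its 44 replicate 1 clusters ranged from −1.14 to 5.23 with a median of 2.15. There 11 clusters were enriched, 25% (13.2 to 40.3%), 1 of which had a replicate 2 cluster of HNRNPL over it. That 1 carried the peak, chr19:39340072-39340136, in intron 472 bp from the 5′ end, with log2 folds of 4.64 and 5.0 and 12 reads. Depth and fold went apart in this gene, where the deepest replicate 2 cluster, with 67 reads at 13381 bp, had the lowest log2 fold of the span in replicate 1, −1.14. The same interval with the same 67 reads is also named for ENSG00000268083, so these reads cannot be given to HNRNPL with certainty, and 7 clusters in the span carry the names of that gene or of ENSG00000269688.

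HNRNPM (chr19:8509905-8553905, plus strand) had 384 reads in 29 clusters, only 8.73 per kb, and 61 replicate 1 clusters from −0.18 to 5.58 with a median of 2.10. Of these 16 were enriched, 26.2% (15.8 to 39.1%), from 534 to 43520 bp. Its top cluster, chr19:8551764-8551821, lay near the 3′ end, 41888 bp into the span, with a log2 fold of 5.58 and a −log10 p of 12.5, and was not a peak. The peak, chr19:8529218-8529258, is in intron far from exons at 43.9% of the span, with log2 folds of 4.26 and 4.36 and 12 reads, the fewest reads of any member peak together with that of HNRNPL.

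HNRNPR and SYNCRIP, the latter also known as hnRNP Q, encode related proteins that bind mRNA in nucleus and cytoplasm. SYNCRIP (chr6:86275115-86352976, minus strand) had 370 reads in 46 clusters and 64 replicate 1 clusters from −0.68 to 5.14 with a median of 1.27. Although only 6 of these were enriched, 9.38% (3.52 to 19.3%), all 6 lay in the first 10% of the span, 28 to 2168 bp from its 5′ end. The peak, chr6:86352658-86352718, is annotated as 5′ UTR, with log2 folds of 3.17 over both replicates and 3.23 in replicate 1 and 23 reads. The span is 77862 bp and reaches beyond the 36285 bp that GENCODE v44 gives the gene, and 7 of its clusters with 27 reads lie past that length. A further 6 clusters in the span are named for SNX14, 3 of them with the same interval as a SYNCRIP cluster.

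HNRNPR (chr1:23630921-23670794, minus strand) had 467 reads in 32 clusters, more than SYNCRIP, and no enriched cluster in replicate 1. The exact interval of 0 of 47 allows up to 7.55% and so holds the 5.35% over all replicate 1 clusters. Log2 folds ran from −1.05 to 2.19 with a median of 0.93, at percentile 25.3. The deepest cluster, 45 reads at 33507 bp, had a log2 fold of 1.29. HNRNPR had no peak, with reads at percentile 97.1 of all genes. Most deeply covered genes had none either, since 23.8% of genes with at least 166 reads had a peak.

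Over the 20 peaks, log2 folds ran from 3.03 to 5.47 with a median of 3.97, against 3.80 over all 866 peaks, and −log10 p from 3.24 to 39.0 with a median of 8.12, against 5.54. In replicate 1 the same places had folds of 3.0 to 5.76 with a median of 4.29, higher than the value for both replicates at 16 peaks and lower at 4. Replicate 2 reads at the peaks ran from 12 to 164 with a median of 33.5. The first region in the study's annotation was intron close to an exon for 11 peaks, a 5′ splice site for 4, 5′ UTR for 3 and intron far from exons for 2, and 1 peak touched coding sequence.

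**Figure D3:**
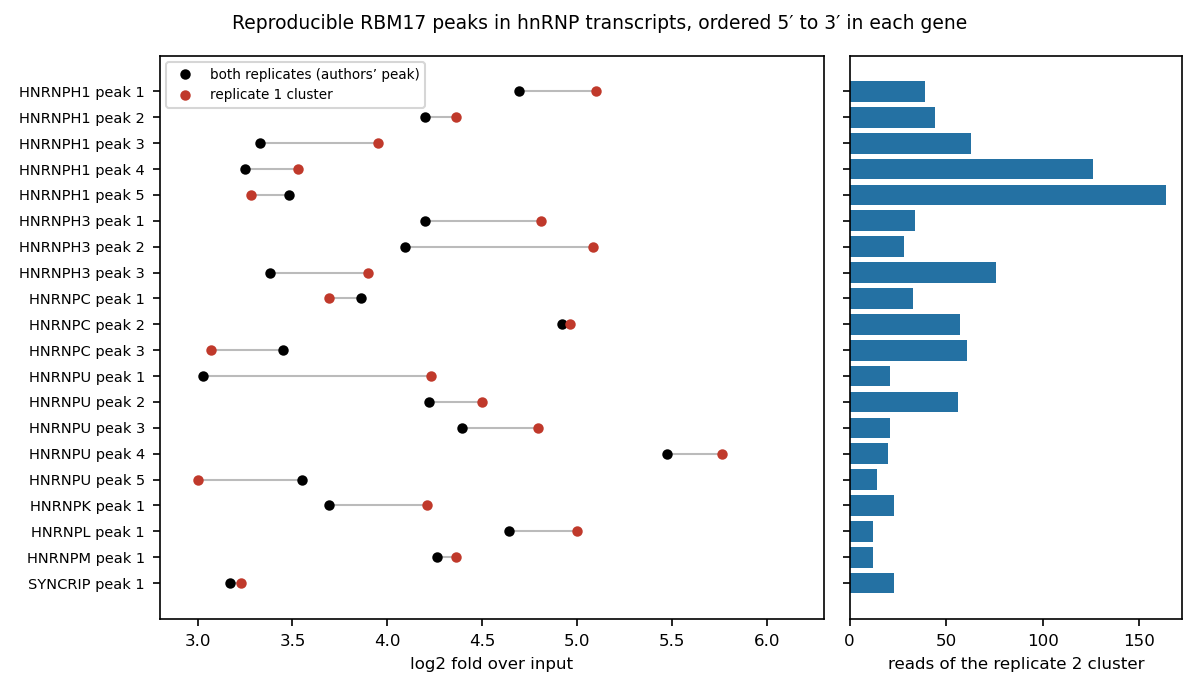
Log2 fold over input (left, x axis) of each of the 20 peaks for both replicates together (black) and for the replicate 1 cluster (red), beside the reads of the replicate 2 cluster (right, x axis). The red point is to the right of the black at 16 peaks, and the longest bar, 164 reads, belongs to the fifth HNRNPH1 peak.

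Peaks gathered nearer the 5′ end of the span than the coverage as a whole. Within 2000 bp of the 5′ end of the span lay 14 of the 20 peaks, a count without a comparison, since the share over all 866 peaks was not computed. In HNRNPH1, HNRNPH3 and HNRNPU, with spans of 9231 to 10201 bp, that window is wider than the first 10% of the span. In the first 10% of the span lay 10 of 20 peaks, 50.0% (27.2 to 72.8%), against 24.4% of 815 peaks in all genes with at least 10 replicate 2 clusters, a description chosen after the data were seen. For enriched replicate 1 clusters the share was 30.4% (21.7 to 40.3%) in the members and 19.4% over those genes, and for all replicate 1 clusters it was 16.2% (13.0 to 19.8%) and 14.1%. Replicate 2 clusters, without any comparison with the input, had 18.8% in the members and 14.7% over those genes. Peaks of 1 transcript are not independent of each other, so these shares are descriptions. In each of the 9 members with replicate 1 clusters there, the median log2 fold in the first 10% was above that of the rest, although 2 to 23 clusters a gene lay there and the same comparison was not made over all genes. Medians in the first 10% ran from 1.06 over 4 clusters in HNRNPF, against −0.15 in its rest, to 4.34 over 11 clusters in HNRNPH3, against 2.69. The value of HNRNPR, 2.19 against 0.83, rests on 3 clusters and that of HNRNPM, 3.04 against 2.10, on 2.

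Deep clusters of replicate 2 were mostly not the enriched ones. The members had 144 replicate 2 clusters with a p of at most 1e-10, of which 121 overlapped a replicate 1 cluster, with a median log2 fold of 1.98, and 24 of these, 19.8%, had a fold of at least 3. Over all genes the median was 1.12 and the share 9.96%. HNRNPH1 gave 12 of the 24, and HNRNPF, HNRNPL, HNRNPM and HNRNPR gave none. The cluster with the most reads was a peak in HNRNPC, HNRNPH1 and HNRNPH3 and not in the other 7 members.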

How the data were processed

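RBM17 eCLIP and the size-matched input were made in K562 cells, with 2 replicates numbered 1 and 2 by their descriptions (the titles number them 2 and 3) and 1 input. Per the labels, the authors trimmed reads with cutadapt and aligned them with STAR, and the study names a published eCLIP pipeline. The build is not given in the sources used here; since positions reach 249211903 on chromosome 1, hg19 was inferred. For replicate 1 and for the reproducible peaks, the authors deposited 2 values per interval, a −log10 p and the log2 fold relative to the input, with the −log10 p limited to 400. For replicate 2 the deposited value is the peak caller's p-value, at most 0.05 and not relative to the input, and each cluster name holds a gene and an unnormalized read count. Peaks were pooled over replicates by the authors, so they have no replicate error. No depth is known for replicate 1, and 1336569 reads lay in replicate 2 clusters.

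The 10 symbols were matched to Ensembl identifiers by GENCODE v44 (10 of 10). Replicate 2 clusters were taken by identifier, and replicate 1 clusters and peaks by an overlap of at least 1 bp with the span of those clusters on the same strand. Distances ran from the middle of an interval to the 5′ end of the span, which need not be the transcription start. The enrichment limits were a log2 fold and a −log10 p of at least 3. Regions of peaks are those of the study's peak annotation. Gene models and splice site sequences are from hg38 and GENCODE v44, and no coordinate was converted. Intervals of shares are Clopper-Pearson at 95% and cover only counting error, since reads and clusters of 1 library are not replicates. No test was run, because the replicates are in different units and the input is 1 sample. Python 3.11.15, pandas 2.3.3, numpy 2.4.6, scipy 1.17.1 and matplotlib 3.10.9 were used, and the overlap code was tested on simulated data.

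The members, the lists of other hnRNP, SR and marker genes and the limits were chosen with earlier results of these data known. All 10 members were named, and genes of the other lists were given by counts, with names for those with the most or fewest peaks. Some genes of these lists are not reported here by name. Alternatives were stricter limits on fold and p, overlap with a cluster named for the gene or over 50% of the cluster, merging of abutting peaks, and leaving out a replicate. Peak sequences and motifs were not analysed here, because they need the hg19 sequence.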

Additional observations from a re-analysis of the deposited data

How the results depend on the processing

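The number of members with a peak, 8, was 6 with a log2 fold of at least 4, 6 with a −log10 p of at least 5 and 8 when a peak had to overlap a cluster named for the gene, the 3 alternatives run for it. The number of peaks, 20, was 10 at a minimum log2 fold of 4, 16 with a −log10 p of at least 5, 19 when a peak had to overlap a cluster named for the gene, and 20 with abutting peaks merged. The share of member replicate 1 clusters past the limits, 21.4%, was 10.3% with a log2 fold of at least 4 (2.28% over all clusters), 17.4% with a −log10 p of at least 5 (3.27%), and 16.6% when the cluster had to overlap a replicate 2 cluster of the gene. The share of replicate 2 clusters overlapping replicate 1, 64.6%, was 56.9% when 50% of the cluster had to be covered (24.8% over all), 84.0% for clusters with a p of at most 1e-10 (78.7%), and 53.8% when the replicate 1 log2 fold had to be above 0. For clusters with that p, the members were thus close to all genes. Alternatives printed without a share over all clusters or genes have none beside them, so the members could not be compared there. Members past the limit in both replicates, 8, were 8 to 10 when 1 replicate was left out, and reads fell from 7975 to 6318 with a p of at most 1e-10. No paired analysis was possible because the input is 1 sample and the replicates were deposited in different units. Without the depth of replicate 1 and of the input, low folds in HNRNPF and HNRNPR could not be given an error.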

Other observations

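Among the 7 hnRNP genes of the A, B and D family, 6 had a reproducible peak, 31 peaks in all, with 63 to 4355 replicate 2 reads and 73 of 234 replicate 1 clusters enriched (31.2%). Over all genes with a replicate 2 cluster 4.07% had a peak, and 23.8% of those with at least 166 reads. Of all replicate 1 clusters 5.35% were enriched. HNRNPA2B1, with 11 peaks, and HNRNPA1, with 8, had the most, and HNRNPA0 had none. Of 12 further hnRNP and related genes, 11 had a replicate 2 cluster and 4 a peak, 10 peaks in all, fewer than the 20 peaks in 8 of the 10 members. In these genes 57 of 311 replicate 1 clusters were enriched (18.3%), close to the 21.4% of the 10 members. PTBP1, the polypyrimidine tract binding protein, had the most peaks of these genes, 5. HNRNPH2, a close relative of HNRNPH1, had 2 replicate 2 clusters with 6 reads and no peak. TAF15 had no replicate 2 cluster, PCBP2 had 10 of 62 clusters enriched without a peak, and RBMX, with 472 reads, had 0 of 17.

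Of 14 SR genes, which encode splicing factors rich in arginine and serine, 12 had a replicate 2 cluster and 6 a peak, 21 peaks in all. Of all genes with a replicate 2 cluster, 4.07% had a peak. In the SR genes 56 of 321 replicate 1 clusters were enriched (17.4%), against 5.35% over all. SRSF6 had the most peaks, 8, whereas SRSF11, with the most reads, 1543, had 0 of 53 clusters enriched. SRSF3 had 14 of 29 clusters enriched and no peak. Reads of near-identical copies can be split between them by an aligner. Of 26 pseudogenes named after the 10 members in GENCODE v44, 0 had a replicate 2 cluster. The share over all pseudogenes is not given here, and whether copies took reads from the members was not tested.

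All 11 K562 marker genes, among them GATA1 and TAL1, had replicate 2 clusters, with 7 of 406 replicate 1 clusters enriched (1.72%) and 0 peaks. Over all replicate 1 clusters 5.35% were enriched. The 406 were counted gene by gene within spans, and HBG2 and HBE1 gave 68 and 62 of them. These genes had 1553 and 1142 reads at 6.18 and 4.82 per kb. Their spans were therefore far longer than that of HBG1, with 139 reads at 120 per kb. Whether spans of different markers share clusters was not tested, so the 1.72% cannot be read as a share over separate marker transcripts. A peak was found in 4.07% of all genes with a replicate 2 cluster, so 0 of 11 is not far from that share. Among the markers of other blood cells, PTPRC had replicate 2 clusters, with 102 reads, and CD3E, MS4A1 and MPO had none.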
